A study of Mus musculus with 127 samples.

Results

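The 10 genes described here are Penk, Pdyn, Tac1, Sst, Npy, Cck, Vip, Cartpt, Scg2 and Nxph1, chosen by symbol as the neuropeptides of the mouse striatum from the 53465 genes of the read count table. All 10 had a row in the table. 8 of them encode precursors that are cut into short signalling peptides. Scg2 encodes secretogranin II, a protein of the vesicles that store such peptides and the precursor of secretoneurin, and Nxph1 encodes neurexophilin 1, a secreted ligand of neurexins, so neither is a classical neuropeptide and both are given apart from the 8 precursors.

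RNA came from 127 single cells of primary mouse cultures: striatal neurons in 5 groups and 14 astrocytes. Each cell was drawn into the patch pipette after electrical recording (Patch-seq), at 15 days in vitro. The neurons came from newborn C57BL/6 striatum and grew on islands of cortical astrocytes. Lentivirus delivered the first exon of human HTT fused to GFP, with 25 glutamines (25Q, the normal length, labelled wild type) or 97 glutamines (97Q, the expanded length of Huntington's disease, labelled mutant). RGFP109, which inhibits histone deacetylases (HDAC1 and HDAC3), was added at 100 nM from day 6 and again every 3 days, and vehicle neurons received DMSO. The groups were 25Q vehicle (29 neurons), 97Q vehicle (26), 25Q RGFP109 (23), 97Q RGFP109 (26), vehicle-treated neurons infected with an empty vector (9) and untreated astrocytes from cortex (14). The virus drives an exon 1 fragment that every 25Q neuron carries too, and the empty vector neurons and the astrocytes were sequenced in batch 3 only, so they are described and not tested. Labels gave a batch of 1, 2 or 3 for each cell and no animal or culture.

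Library totals ran from 999700 to 9263305 counts, with a median of 4245947 in neurons and 7441964 in astrocytes. The 15 neurons of batch 2 had a median of 8877 genes with a count, against 12436 in the 34 neurons of batch 1 and 11844 in the 64 of batch 3. The 10 pan-neuronal markers summed to 1019 to 22680 CPM (counts per 1000000 counts of the cell) in neurons, and the 6 glutamatergic markers to 0 to 39.2 CPM. The 12 astrocyte markers summed to 3569 to 18580 CPM in astrocytes and to 0 to 3319 CPM in neurons, and 8 neurons reached 10% of the astrocyte median. A cell is called expressing here at 10 CPM or more, and intervals on shares of cells are exact 95% binomial intervals that cover counting error only.

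Neuropeptide precursors are cleaved by prohormone convertases in dense core vesicles and released to act on G protein-coupled receptors. In the striatum the 2 classes of projection neuron are known by their peptides: those of the indirect pathway carry enkephalin (Penk) with the D2 dopamine receptor, and those of the direct pathway carry dynorphin (Pdyn) and substance P (Tac1) with the D1 receptor. Somatostatin (Sst) and neuropeptide Y (Npy) mark one class of interneuron, and cholecystokinin (Cck) and vasoactive intestinal peptide (Vip) others.

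Scg2 stood apart from the other members because nearly every neuron had it. It was expressed in 109 neurons, all but 4 (96.5%, lower bound of the interval 91.2%), with a median of 462 CPM, a lowest value of 0.457 CPM and a highest of 11950 CPM. In the 14 astrocytes its highest level was 0.549 CPM. The next most frequent were Nxph1 in 28 neurons (24.8%, interval 17.1 to 33.8%) and Cartpt, the precursor of the cocaine- and amphetamine-regulated transcript peptides, in 27 (23.9%, interval 16.4 to 32.8%). Penk was expressed in 18 neurons (15.9%, interval 9.72 to 24.0%), Sst in 15 (13.3%) and Npy in 10 (8.85%). Cck reached 10 CPM in 4 neurons, Pdyn in 3, Tac1 in 3 and Vip in 1. Apart from Scg2, the members were thus genes of a minority of cells, and the median neuron had 0.686 CPM of Cartpt, 0.178 CPM of Nxph1 and 0 CPM of the other 7.

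**Figure D1:**
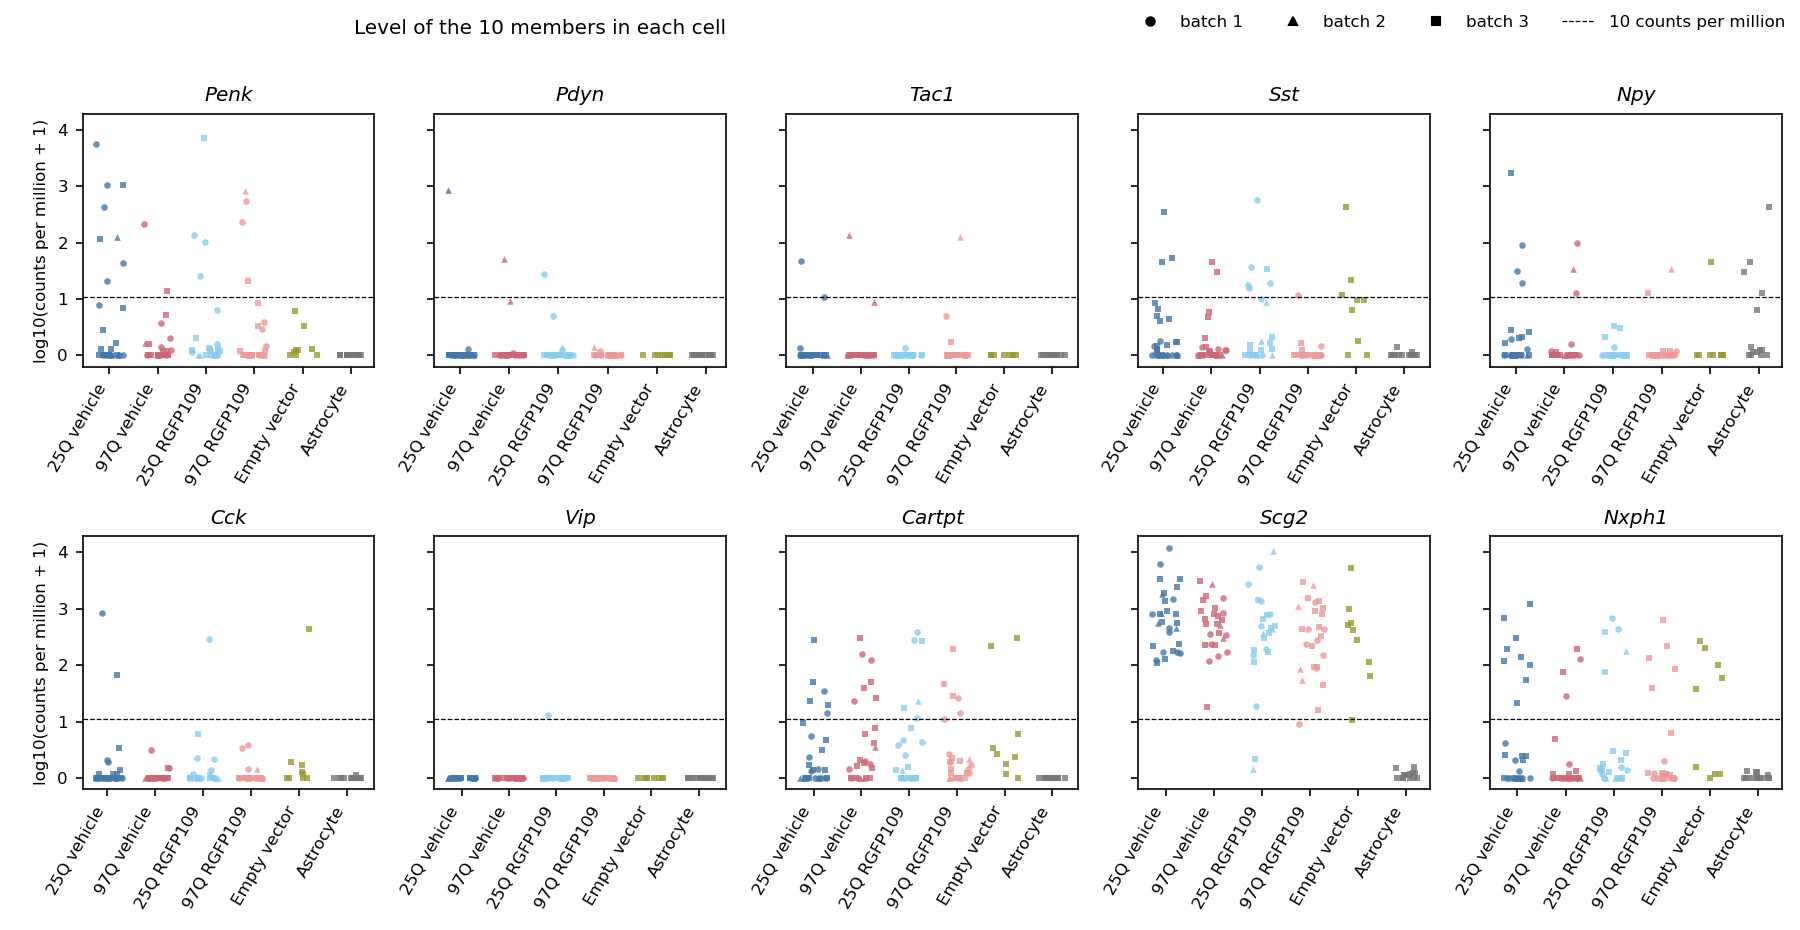
Level of each member in each of the 127 cells, as log10(CPM + 1), by group; symbols give the batch and the dashed line marks 10 CPM. Scg2 lies above the line in 109 neurons and below it in all 14 astrocytes, and the other members lie above it in single cells.

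Compared per length of exon, as the mean over all neurons of CPM per kilobase of exon, the order of levels was Scg2 (407), Penk (95.2), Npy (33.1), Sst (21.7), Cartpt (21.0), Nxph1 (12.7), Cck (11.3), Pdyn (2.91), Tac1 (0.860) and Vip (0.0310). Much of that order below Scg2 rested on few cells. A single 25Q RGFP109 neuron held 39.7% of all Penk counts in neurons, a single 25Q vehicle neuron held 89.1% of all Npy counts, and a single 25Q vehicle neuron held 95.5% of all Pdyn counts. Among expressing neurons alone, the median per kilobase was highest for Cck (278, 4 neurons), ahead of Scg2 (196) and Penk (105).

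3 members carry the palindrome TGACGTCA, the full cAMP response element bound by CREB, in the 250 bases before their RefSeq start. The sites are shown because Sst, Cartpt and Scg2 are the members that share this sequence. Each line gives 30 bases on the gene's strand, 5′ to 3′, with the element in capitals (RefSeq, GRCm38.p6).
Sst: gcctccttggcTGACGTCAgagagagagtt
Cartpt: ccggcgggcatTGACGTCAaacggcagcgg
Scg2: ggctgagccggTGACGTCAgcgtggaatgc
The windows lie at chr16:23890874-23890903, chr13:99900777-99900806 and chr1:79440076-79440105, all on the minus strand, and the element starts 48, 112 and 68 bases before the RefSeq start. In GENCODE M21 each window also falls in an exon of 1 transcript of its gene, whose start lies further upstream. 9 of the 10 members had a promoter in the RefSeq table (Penk had none), and the element was found on either strand before 1.77% of its 27025 genes. 3 further motifs were searched: TGACTCA was in no member (5.16% of genes), TATAAA was in Vip (14.3%) and CAGCTG was in no member (14.7%). Over all neurons, which differ in depth and batch, the log2(CPM + 1) levels of these genes had a Pearson r of 0.12 for Sst with Cartpt, 0.01 for Sst with Scg2 and 0.05 for Cartpt with Scg2, given as a description.

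Most neurons with a precursor had only 1 of the 8 at 10 CPM. Of all neurons, 54 had none of the 8 precursors at 10 CPM, 40 had 1, 16 had 2 and 3 had 3. In the 59 neurons with any, the leading precursor, which is the highest of the 8 by definition, made a median of 95.9% of the summed precursor CPM. Since 40 of the 59 had only 1 at 10 CPM, a high share follows in part from that cut. Cartpt led in 21 neurons, Penk in 16, Sst in 10, Npy in 5, Cck in 4, Tac1 in 2, Pdyn in 1 and Vip in none. These numbers depend on where a cell is called: at 100 CPM only 30 neurons had a precursor and 3 had 2, and at 1 count 106 had a precursor and 82 had 2 or more.

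**Figure D2:**
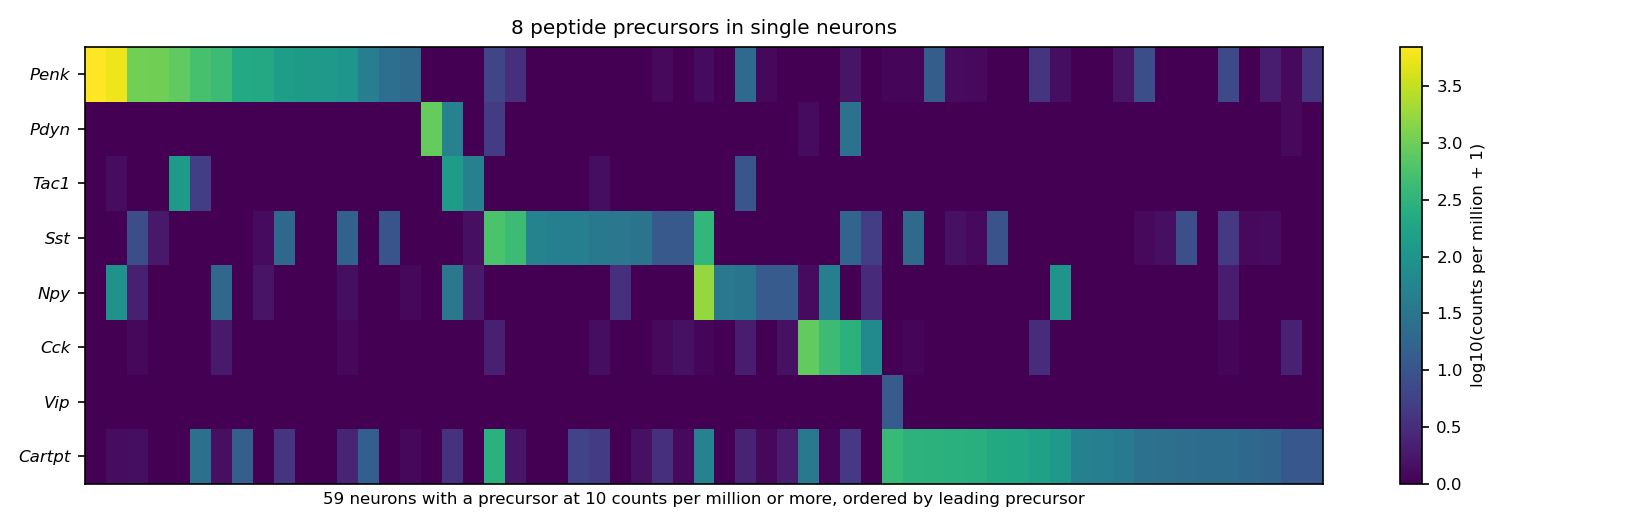
The 8 peptide precursors (rows) in the 59 neurons that had any at 10 CPM or more (columns, ordered by the leading precursor), coloured by log10(CPM + 1). The blocks led by Cartpt (21 neurons) and Penk (16) are the widest, and 19 neurons had 2 or more precursors.

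The neurons with 3 precursors were different combinations. Neuron 27 of the 25Q vehicle group had 1733 CPM of Npy, 349 CPM of Sst and 49.2 CPM of Cartpt, together with the highest Nxph1 level of any cell, 1225 CPM. It was the one neuron in which Sst and Npy were both expressed: the other 14 Sst neurons and the other 9 Npy neurons each lacked the partner at 10 CPM. Neuron 10 of 97Q vehicle had 135 CPM of Tac1, 49.7 CPM of Pdyn and 32.7 CPM of Npy, and was the one neuron with both direct pathway peptides. Neuron 3 of 25Q RGFP109 had 292 CPM of Cck with Pdyn at 26.4 CPM and Sst at 17.0 CPM, and 692 CPM of Nxph1. Penk and Tac1 met in 1 neuron, number 10 of 97Q RGFP109, with 807 CPM of Penk and 126 CPM of Tac1.

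Penk (chr4:4133531-4138819, minus strand) neurons had the larger share for 5 of the 6 indirect pathway markers in the table, most of all for Drd2, Gpr6 and Adora2a. Of the 18 Penk neurons, 8 expressed Drd2, the D2 receptor, against 8 of the 95 others. Gpr6, an orphan receptor of indirect pathway neurons, was expressed in 9 of 18 against 14 of 95, and Adora2a, an adenosine receptor, in 4 of 18 against 7 of 95. Of the other 3, Sp9 was expressed in 5 of 18 against 22 of 95, Necab1 in 6 of 18 against 28 of 95 and Upb1 in 0 of 18 against 2 of 95. Drd1 had a lower share, in 2 of 18 against 21 of 95. Ppp1r1b (DARPP-32), which marks projection neurons of both pathways, was expressed in 12 of 18 against 33 of 95, and the interneuron factor Lhx6 in 0 of 18 against 13 of 95. The 6 indirect pathway markers in the table summed to a median of 143 CPM in Penk neurons (range 0.300 to 951) and 13.5 CPM in the others (range 0 to 1826), so the ranges overlapped. Cells of a group are not replicates, so these shares are given without a test.

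Batch moved with these counts. Penk was expressed in 11 of 34 neurons of batch 1, 2 of 15 of batch 2 and 5 of 64 of batch 3. Within batch 1, Drd2 was expressed in 6 of 11 Penk neurons and 3 of 23 others, and Gpr6 in 7 of 11 and 8 of 23. Within batch 3 the counts were 1 of 5 against 4 of 59 for Drd2 and also for Gpr6. The direction of both was therefore the same in the 2 larger batches, and Drd2 was found in 7 of 17 Penk neurons and 8 of 88 others without the 8 neurons rich in astrocyte markers. One annotated gene, A830012C17Rik, shares exon sequence with Penk, so reads there could belong to either.

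**Figure D3:**
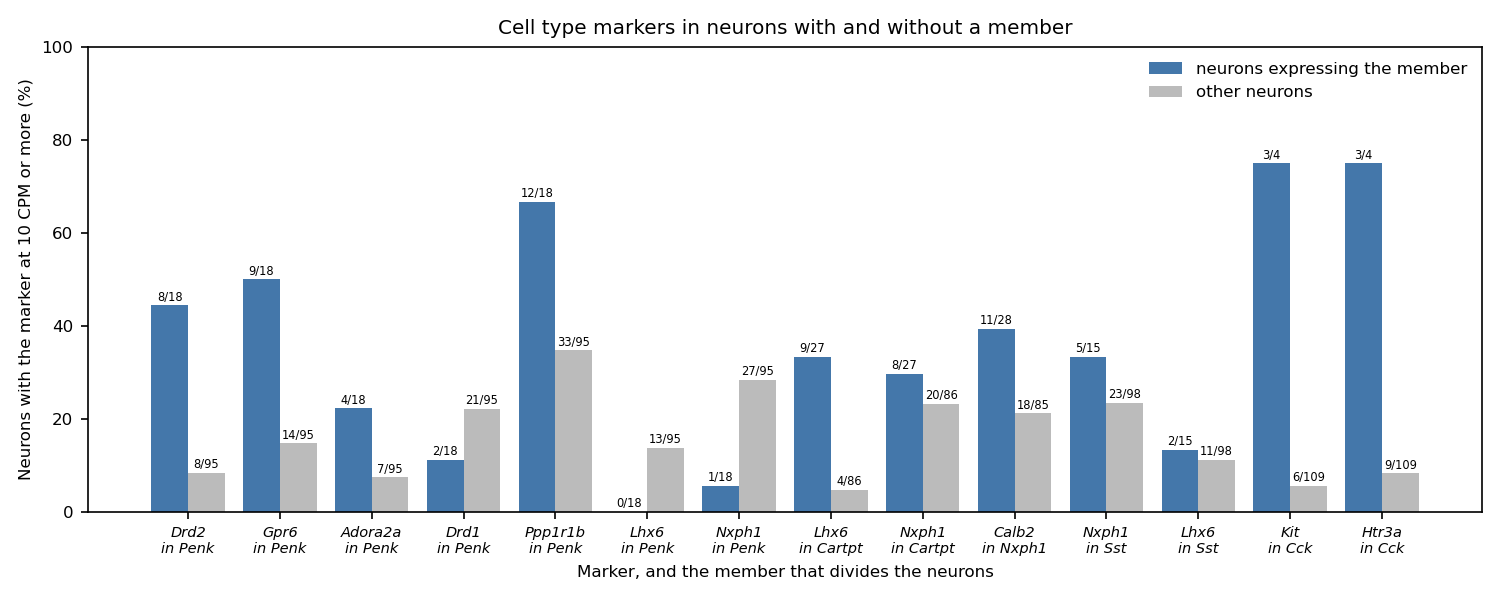
Percentage of neurons with each marker at 10 CPM or more, among neurons expressing a member (blue) and the other neurons (grey), with counts above the bars. Drd2 was in 8 of 18 Penk neurons against 8 of 95 others, and Lhx6 in 9 of 27 Cartpt neurons against 4 of 86.

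Pdyn (chr2:129686565-129699844, minus strand) and Tac1 (chr6:7554879-7565834, plus strand), the direct pathway peptides, were close to absent in these cultures. Pdyn had a count in 11 neurons and reached 10 CPM in 3: number 14 of 25Q vehicle at 860 CPM, number 10 of 97Q vehicle at 49.7 CPM and number 3 of 25Q RGFP109 at 26.4 CPM. Tac1 reached 135 CPM in number 10 of 97Q vehicle, 126 CPM in number 10 of 97Q RGFP109 and 46.6 CPM in number 4 of 25Q vehicle. All 64 neurons of batch 3 had 0 Pdyn counts, an exact upper limit of 5.60% on the share of neurons with a count (4.69% by the limit of 3 cells of the total), and 1 of them had 4 counts of Tac1. Drd1, the receptor of the same pathway, was expressed in 23 neurons.

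Sst (chr16:23889573-23890958, minus strand) and Npy (chr6:49822710-49829507, plus strand) met in 1 neuron at 10 CPM. Npy was in 6.67% of Sst neurons and 9.18% of the others, so the shares were close. At 1 count or more 14 of the 27 neurons with Npy also had Sst (51.9%), against 46.5% of the neurons without Npy, again close. Sst was expressed in 3 of 29 25Q vehicle neurons, 2 of 26 97Q vehicle neurons, 6 of 23 25Q RGFP109 neurons, 1 of 26 97Q RGFP109 neurons and 3 of 9 empty vector neurons. Npy was expressed in 4 of 29, 3 of 26, 0 of 23, 2 of 26 and 1 of 9 in the same order. The intervals of these shares overlapped between all groups of neurons for each gene. Nos1, the nitric oxide synthase of Sst and Npy interneurons in the adult striatum, was expressed in 0 of 15 Sst neurons and 1 of 10 Npy neurons, and Lhx6 in 2 of 15 Sst neurons against 11 of 98 others.

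Npy was the only member above 10 CPM in astrocytes. It was expressed in 4 of 14 astrocytes (28.6%, interval 8.39 to 58.1%), at 428, 43.7, 28.5 and 11.9 CPM, against 10 neurons (8.85%, interval 4.33 to 15.7%). Counts of Sst, Cck, Scg2 and Nxph1 in the 14 astrocytes summed to 4, 1, 15 and 7, and Penk, Pdyn, Tac1, Vip and Cartpt had 0 in all of them. The 12 astrocyte markers summed to a median of 323 CPM in the 10 Npy neurons (range 8.30 to 697) and 199.8 CPM in the others (range 0 to 3319), so the ranges overlapped. By share of neurons, 8 of the 12 markers were higher in Npy neurons (Aqp4, the astrocyte water channel, 6 of 10 against 34 of 103), 3 were lower (Slc1a2, a glutamate transporter, 2 of 10 against 61 of 103, with S100b and Aldoc) and Gjb6 was at 0 of both. All 10 Npy neurons lay below the level at which a neuron counts as rich in astrocyte markers (966.8 CPM). That level does not measure smaller amounts of astrocyte RNA. The highest Npy neuron had 1733 CPM and the next 95.8 CPM, against 428 CPM in the highest astrocyte. The part of astrocyte RNA in the Npy of neurons was not tested.

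Cck (chr9:121489824-121495694, minus strand) was rare and high where present. Its 4 neurons had 851 CPM (25Q vehicle 9), 432 CPM (empty vector 8), 292 CPM (25Q RGFP109 3) and 66.1 CPM (25Q vehicle 23). 3 of the 4 also expressed Kit, a receptor tyrosine kinase of some interneurons, against 6 of 109 others, and 3 of the 4 expressed the serotonin receptor gene Htr3a, against 9 of 109. None of the 52 neurons with 97Q reached 10 CPM of Cck, an exact upper limit of 6.85% (5.77% by the limit of 3 cells of the total), against 3 of 52 with 25Q (5.77%, interval 1.21 to 16.0%). These intervals cover counting of cells only, and the shares were not tested. Vip (chr10:5639218-5647617, plus strand) had counts in 1 neuron, 76 counts or 11.9 CPM in number 7 of 25Q RGFP109, and 0 in every other cell.

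Cartpt (chr13:99898489-99901091, minus strand) was the most evenly spread of the precursors. It was expressed in 6 of 29 neurons of 25Q vehicle (20.7%, interval 7.99 to 39.7%), 7 of 26 of 97Q vehicle (26.9%, interval 11.6 to 47.8%), 6 of 23 of 25Q RGFP109 (26.1%, interval 10.2 to 48.4%), 6 of 26 of 97Q RGFP109 (23.1%, interval 8.97 to 43.7%) and 2 of 9 with empty vector. Its highest level was 391 CPM. Lhx6, the transcription factor of interneurons born in the medial ganglionic eminence, was expressed in 9 of 27 Cartpt neurons and 4 of 86 others. That held in batch 1 (5 of 11 against 0 of 23) and batch 3 (4 of 15 against 3 of 49), and batch 2 had 1 Cartpt neuron, without Lhx6. Lhx6 is 1 gene of a longer list. The 16 interneuron markers summed to a median of 229 CPM in Cartpt neurons (range 0.692 to 2032) and 88.5 CPM in the others (range 0.378 to 5266). The 12 projection neuron markers summed to medians of 847 CPM (range 209 to 4562) and 1287 CPM (range 75.5 to 9542). Both pairs of ranges overlapped.

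Nxph1 (chr6:8948431-9249032, plus strand) was expressed in 9 of 29 25Q vehicle neurons, 4 of 26 97Q vehicle neurons, 5 of 23 25Q RGFP109 neurons, 5 of 26 97Q RGFP109 neurons and 5 of 9 empty vector neurons. Like Penk it moved with batch, but the other way: 4 of 34 neurons expressed it in batch 1, 1 of 15 in batch 2 and 23 of 64 in batch 3. Penk and Nxph1 met in 1 of the 18 Penk neurons, and 27 of the 95 others had Nxph1. Within batch 1 these counts were 0 of 11 and 4 of 23, and within batch 3 they were 1 of 5 and 22 of 59. Sst neurons had Nxph1 in 5 of 15 cases against 23 of 98, with 1 of 6 against 3 of 28 in batch 1 and 4 of 9 against 19 of 55 in batch 3. Calb2 (calretinin) was expressed in 11 of 28 Nxph1 neurons and 18 of 85 others, and within batch 3 in 10 of 23 and 13 of 41. Lhx6 had no such excess, in 3 of 28 and 10 of 85, and within batch 3 in 2 of 23 and 5 of 41. The 16 interneuron markers summed to a median of 214 CPM in Nxph1 neurons (range 0.762 to 1867) and 90.2 CPM in the others (range 0.378 to 5266), so the ranges overlapped.

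The genes with the most similar levels to a member, by Pearson r of log2(CPM + 1) over all neurons among 15631 genes, are given as a description, since the neurons share batches and depth. For Cck they were Bmp3 (0.60), Kit (0.57) and St8sia5 (0.57). For Penk they were Lpl (0.54), Gm11410 (0.51) and Gm10073 (0.49), and for Nxph1 they were Pnoc (0.47), Rnls (0.46) and Taf9 (0.44). For Sst they were St8sia1 (0.44), Fam19a1 (0.42) and Tmem132b (0.40), for Npy Gm45930 (0.50), Gm5791 (0.46) and Trim30d (0.44), for Cartpt Gm2464 (0.40), Gm16541 (0.38) and Zfp426 (0.37), and for Scg2 Rit2 (0.37), Gm28902 (0.37) and Clcn3 (0.37). Pdyn, Tac1 and Vip had counts in 11, 9 and 1 neurons, too few for such a ranking.

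**Figure D4:**
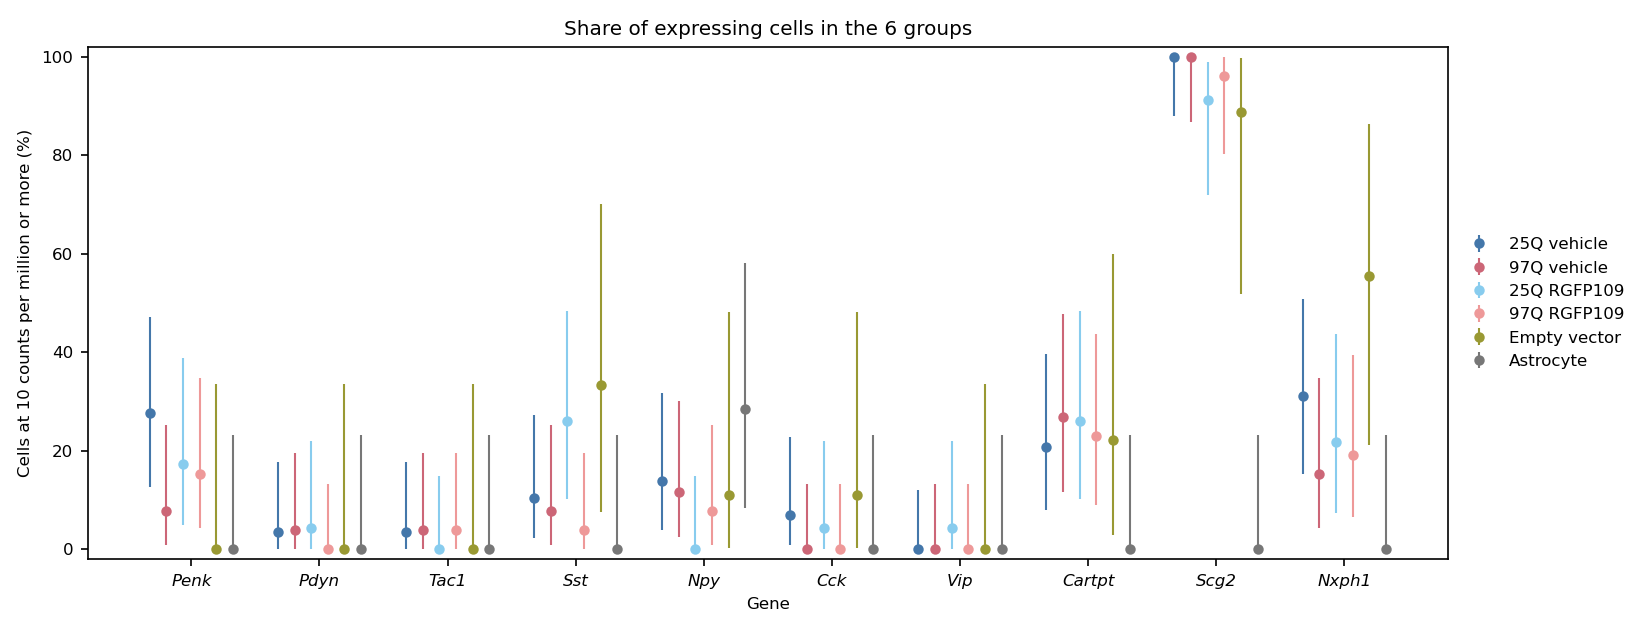
Percentage of cells at 10 CPM or more for each member in each of the 6 groups, with exact 95% binomial intervals. The intervals of the 4 HTT groups overlap for each of the 10 members, and Npy is the only member above 0 in astrocytes.

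The study asked what the expanded repeat does to gene expression in these neurons, and whether inhibition of HDAC1 and HDAC3 alters it. For that test the counts of the neurons with 25Q or 97Q (52 each) were summed by group and batch, which made 3 sums per group, and edgeR was fitted to 15091 genes with batch as a term. 7 members were tested. Pdyn and Tac1 had a count in fewer than 20% of these neurons, Vip in 1, and these are given by their counts above. In such sums, fewer expressing cells and less RNA per cell cannot be told apart.

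Between 97Q and 25Q neurons under vehicle, none of the 7 members passed the test at an adjusted p under 0.05, and neither did any of the 15091 genes (0%). Penk had the same order in all 3 batches. Its summed level was 715, 17.8 and 87.6 CPM in batches 1, 2 and 3 of 25Q vehicle, 273 ± 384 CPM (SD, n = 3), and 38.6, 0.231 and 1.74 CPM in 97Q vehicle, 13.5 ± 21.8 CPM (SD, n = 3). The 97Q sum was lower in each batch, yet the ranges of the groups overlapped and single neurons made 81.6 to 100% of each 25Q sum. The log2 fold change was -4.65 (SE 2.56), with an adjusted p of 0.969, and 8 of 29 neurons expressed Penk in 25Q vehicle (27.6%, interval 12.7 to 47.2%) against 2 of 26 in 97Q vehicle (7.69%, interval 0.946 to 25.1%). All 5 indirect pathway markers that were tested also had negative values, with a median log2 fold change of -3.63 against 0.06 over all genes, and none passed. Some of them were expressed in the same neurons as Penk, so their values are not separate from it. The direction was not particular to this pathway, since 11 of 12 projection neuron markers were negative too. For RGFP109 in 25Q neurons, which is compared with the same 25Q vehicle sums, 11 of 12 projection neuron markers were also negative.

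Cck under vehicle had the one unadjusted p under 0.05 among the members, where 3.96% of all genes had one. 25Q vehicle had 2729, 0 and 410 counts in the 3 batches (96.6, 0 and 5.96 CPM), and 97Q vehicle had 8, 0 and 1 counts. The log2 fold change was -8.11 (SE 2.75), with an unadjusted p of 0.0154 and an adjusted p of 0.969 by edgeR. DESeq2, which called 213 genes (1.41%), gave an adjusted p of 0.0071. Without neuron 9 of 25Q vehicle, which held 99.8% of the batch 1 counts, edgeR gave -6.65 with an adjusted p of 0.960. The call thus depended on the test, and the counts on 2 neurons.

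The other members showed no common direction under vehicle. Scg2, which was measured in every neuron, had 2518, 745 and 1219 CPM in 25Q vehicle (1494 ± 918, SD, n = 3) and 434, 1082 and 989 CPM in 97Q vehicle (835 ± 350, SD, n = 3), lower with 97Q in 2 of 3 batches, with a log2 fold change of -0.98 (SE 0.70, adjusted p 0.969). Cartpt was higher with 97Q in all 3 batches, at 6.02, 0 and 33.3 CPM in 25Q vehicle and 22.9, 0.923 and 38.1 CPM in 97Q vehicle. Its log2 fold change was 1.44 (SE 1.28, adjusted p 0.969). Sst (-2.30, SE 2.54), Npy (-2.15, SE 3.17) and Nxph1 (2.89, SE 3.72) changed sign when 1 batch was left out: Sst was 0.66 and Npy 0.67 without batch 3, and Nxph1 was -4.22 without batch 1. Over the 7 members 5 values were negative and 2 positive, with a median of -2.15.

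With RGFP109 in 97Q neurons, no member passed the test and none had an unadjusted p under 0.05, where 2.48% of all genes had one and 0% passed after adjustment. Penk was 56.8, 166 and 1.86 CPM in the 3 batches with the drug and 38.6, 0.231 and 1.74 CPM without. The drug value was higher in each batch, by 0.06 to 7.08 on the log2(CPM + 1) scale, and the batch 2 sum came from 1 neuron, number 10. The log2 fold change of 5.88 (SE 3.65, adjusted p 0.999) was 0.43 without batch 2. Cartpt (-1.68, SE 1.27) and Scg2 (-0.30, SE 0.67) were lower with the drug in 3 of 3 batches. DESeq2 called 0.722% of genes here and no member.

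With RGFP109 in 25Q neurons, none of the 7 members passed (0% of all genes did), and Cartpt and Npy had an unadjusted p under 0.05, as 2.52% of all genes did. Cartpt was 105, 4.79 and 24.4 CPM with the drug and 6.02, 0 and 33.3 CPM without. It was higher in batches 1 and 2 and lower in batch 3, and number 7 of 25Q RGFP109 held 75.5% of the batch 1 counts. The log2 fold change was 3.33 (SE 1.44), with an unadjusted p of 0.0449 and an adjusted p of 1 by edgeR. Npy had 2, 0 and 28 counts in the 3 batches with the drug and 420, 0 and 11061 without, of which neuron 27 of 25Q vehicle gave 11027. Its log2 fold change was -7.88 (SE 3.40), with an unadjusted p of 0.0445 and an adjusted p of 1 by edgeR. Sst and Nxph1 were higher with the drug in batches 1 and 2 and lower in batch 3, and DESeq2, with 1.01% of genes called, gave Nxph1 (log2 fold change 7.36) an adjusted p of 0.0415.

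**Figure D5:**
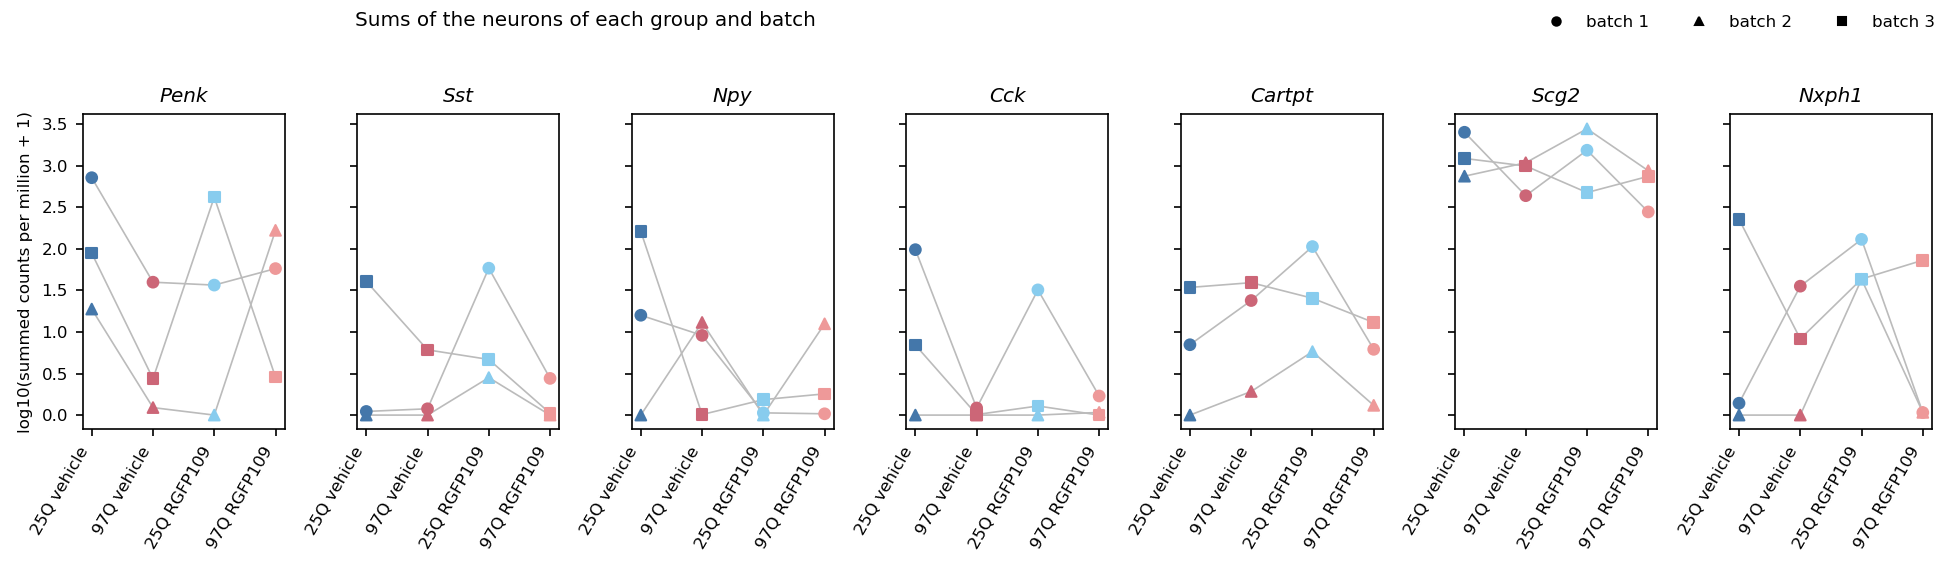
Summed level of the 7 tested members in each group and batch, as log10(CPM + 1), with lines joining the sums of a batch. Penk was lower in 97Q vehicle than in 25Q vehicle in 3 of 3 batches, and Cartpt was lower in 97Q RGFP109 than in 25Q RGFP109 in 3 of 3.

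Between 97Q and 25Q neurons that both received RGFP109, again no member passed (0% of genes did). Cartpt and Nxph1 had an unadjusted p under 0.05, as 3.74% of all genes did. Cartpt was 105, 4.79 and 24.4 CPM in 25Q RGFP109 (44.8 ± 53.3, SD, n = 3) and 5.18, 0.309 and 12.0 CPM in 97Q RGFP109 (5.82 ± 5.87, SD, n = 3), lower with 97Q in each batch although the ranges overlapped. Its log2 fold change was -3.58 (SE 1.36), with an unadjusted p of 0.0267 and an adjusted p of 0.9995 by edgeR. Nxph1 was 129, 42 and 42.3 CPM in 25Q RGFP109 and 0.0734, 0.0773 and 71.9 CPM in 97Q RGFP109, so batch 3 went the other way, and its log2 fold change was -8.05 (SE 3.54, unadjusted p 0.0481). DESeq2, with 1.84% of genes called, gave adjusted p values of 0.0419 for Cartpt and 0.012 for Nxph1. Sst was lower with 97Q in 3 of 3 batches, at 57.4, 1.82 and 3.67 CPM against 1.76, 0 and 0.0525 CPM (log2 fold change -5.87, SE 2.68, adjusted p 0.9995), and number 4 of 25Q RGFP109 held 82.0% of its batch 1 counts.

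The test of whether the repeat effect differed with the drug called no gene (0%), and 2.60% of genes had an unadjusted p under 0.05. Cartpt was the one member among them, with an interaction of -5.01 on the log2 scale (SE 1.91), an unadjusted p of 0.0265 and an adjusted p of 0.998 by edgeR. DESeq2 called 0.464% of genes, with an adjusted p of 0.101 for Cartpt and 0.032 for Nxph1. The Nxph1 interaction was -10.94 (SE 6.34) by edgeR, and its sign changed with limma-voom and with batch left out of the model.

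Genes that make and store peptides ranged from nearly every neuron to few. All 20 genes of prohormone processing and dense core vesicles were tested and none passed in any of the 5 comparisons. Scg5, a chaperone of prohormone convertase 2, was expressed in 112 neurons, all but 1, with a median of 615 CPM, Cpe (carboxypeptidase E) in every neuron with 362 CPM, the vesicle protein Syt4 in 106 with 276 CPM and Chgb (chromogranin B) in 109 with 203 CPM. Those are the 4 most abundant. Pcsk2, a convertase, was expressed in 17 of 18 Penk neurons and 64 of 95 others, and the convertase gene Pcsk1 in 2 of 18 and 8 of 95. Between 97Q and 25Q under vehicle 15 of the 20 values were negative, with a median log2 fold change of -0.20 against 0.06 over all genes. The summed level of the 20 genes had a median of 3012 CPM in neurons and 1671 CPM in astrocytes, so unlike Scg2 the list was not confined to neurons.

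Receptors and further precursors were sparser. 5 of 22 neuropeptide receptor genes were tested and none passed. The most abundant were Oprl1, the nociceptin receptor (81 neurons, median 124 CPM), Adcyap1r1, the PACAP receptor (55 neurons), Npy1r (40) and Sstr2 (24), so receptors for NPY and somatostatin were found in more neurons than the peptides Npy (10) and Sst (15). Under vehicle, Adcyap1r1 had a log2 fold change of -3.00 (SE 0.87, adjusted p 0.969). 5 of 21 other precursor genes were tested and none passed. Pnoc, the precursor of nociceptin, was expressed in 51 neurons, more than any of the 8 precursors above, and Nts, the precursor of neurotensin, in 24 with a highest level of 5562 CPM. Nppc was expressed in 14 and Nxph2 in 4.

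Marker lists of the cells that carry these peptides had no gene past the test in any of the 5 comparisons. All 12 markers of striatal projection neurons were tested, and 11 of the 12 values were negative for 97Q against 25Q under vehicle, with a median log2 fold change of -1.33 (Arpp21 -1.75, Meis2 -1.38, Gnal -0.88, Ptpn5 -1.52). For RGFP109 against vehicle in 25Q neurons, 11 of the 12 values were negative as well, with a median of -1.17. Both comparisons are made against the same 25Q vehicle sums, so the pattern was not particular to 97Q. For the indirect pathway (Necab1, Gpr6, Adora2a and Drd2 the most abundant), the 5 values were all positive for RGFP109 in 97Q neurons, with a median of 2.92. That was the same direction as Penk, with which some of these markers shared neurons. The 97Q vehicle sums enter this comparison and that of 97Q with 25Q under vehicle with opposite signs. Opposite directions in these comparisons are therefore not separate results. For the direct pathway 4 of 7 markers were tested (Sfxn1, Drd1 and Isl1 among them, Slc35d3 not), with medians of 1.18 for 97Q under vehicle and -1.72 for RGFP109 in 97Q. The markers were split under vehicle: 3 values were positive (Sfxn1 0.14 and Isl1 2.23 among them), and Drd1 was negative at -6.16 (SE 2.98). For interneurons 10 of 16 were tested (Calb2, Reln, Htr3a and Kit the most abundant), with 5 positive and 5 negative values under vehicle and a median of -0.02. Of the 10 pan-neuronal markers (Snap25, Stmn2, Gad1 and Gad2 the most abundant) 7 were negative under vehicle, and Gad1, an enzyme of GABA synthesis, was at -1.83 (SE 0.245, adjusted p 0.445).

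Markers of other cells were measured beside these. 11 of 12 astrocyte markers were tested (Slc1a3, Mlc1, Aldoc and Slc1a2 the most abundant; Gjb6 was at 0 in every astrocyte), with a median log2 fold change of -0.09 for 97Q under vehicle and 0.84 for RGFP109 in 25Q. For oligodendrocytes 6 of 9 were tested (Mbp, Olig1 and Olig2 among them), with a median of 0.49 for 97Q under vehicle, and their summed level had a median of 43.9 CPM in neurons. For microglia 2 of 8 were tested (Csf1r and C1qb; Aif1 and C1qc were not), and their sum had a median of 2.29 CPM in neurons. For endothelial and mural cells 1 of 8 was tested (Acta2, 2.03 under vehicle; Rgs5, Pdgfrb and Flt1 were not). None of the 6 glutamatergic markers (Slc17a6, Slc17a7 and Neurod2 among them) reached the filter. The part of other cells' RNA in the members' levels was not tested.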

How the data were processed

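The authors deposited raw read counts per Ensembl gene for each cell. Per the submitters' processing notes, FastQC, Trimmomatic 0.36, STAR 2.5 and HTSeq 0.9.1 were named with the builds GRCm38 and mm10, and the strand setting is not given in the sources used here. Libraries were SMARTer full-length cDNA cut with Nextera XT, per the labels' protocols, without molecular identifiers, so reads are not independent molecules.

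Symbols came from GENCODE M21 (53274 of 53465 genes matched). CPM used all counts of a cell. Counts of neurons with 25Q or 97Q were summed by group and batch (12 sums) and tested with edgeR 4.0.16 (TMM, robust quasi-likelihood, group and batch terms, 6 residual degrees of freedom, two-sided, Benjamini-Hochberg over 15091 genes kept by filterByExpr and a count in 20% of cells). SE is the log2 fold change divided by the root of the test statistic. Batches are labelled, and sums of one batch deviated together (r 0.0969 to 0.299, against -0.187 to 0.0347 between batches). The fit was tested on simulated counts. Since no label names an animal or culture, p-values measure how group differences varied from batch to batch, after the batch term.

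Alternatives used DESeq2 1.42.0, limma 3.58.1, R 4.3.3, other filters, cells thinned to 900000 counts and cells or batches left out. Named genes were the 10 members, the 4 genes of each list with the highest mean CPM over neurons and the 3 genes most like each member, among genes with a count in 20% of neurons; a few list genes are not reported here. Marker and list genes set beside a member, motifs and single cells were chosen after their values were seen. The members and lists were chosen with earlier results of these data known.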

Additional observations from a re-analysis of the deposited data

Results flagged for a closer look

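The difference of Cartpt between 97Q and 25Q had opposite signs under vehicle and under RGFP109 in all 3 batches. On the log2(CPM + 1) scale the ratio averaged 0.97 under vehicle (1.77, 0.94 and 0.19) and -2.41 under RGFP109 (-4.11, -2.15 and -0.97). These sums rested on few neurons. In batch 2 they were 0 (25Q) and 8 counts (97Q) under vehicle, and 50 and 4 under RGFP109, with 98.0% of the 50 in 1 neuron. In batch 3 single neurons held 75.1% (25Q) and 78.2% (97Q) of the vehicle sums. The share of neurons expressing Cartpt ran from 20.7 to 26.9% over the 4 groups. The interaction itself was tested with edgeR and gave -5.01 (SE 1.91) with an unadjusted p of 0.0265 and an adjusted p of 0.998, so it failed the correction over all genes, and the adjusted p ran from 0.101 to 1 over the alternatives.

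In the empty vector group of 9 neurons, 5 of the 10 members had 1 neuron far from the others. Sst was 432 CPM in neuron 3 against at most 20.7 CPM in the rest. Cck was 432 CPM and Npy 45.1 CPM in neuron 8, where the next highest values were 0.916 and 0 CPM. Scg2 was 5287 CPM in neuron 2, with 1000 CPM next, and Penk was 5.05 CPM in neuron 6, with 2.38 CPM next. Chance marks about 1 in 20 groups this way when values are normally distributed, and the rate for these skewed single-cell values was not measured. The rule was applied to groups of at most 10 cells, so no other group was examined. In larger groups 1 neuron could also hold most counts of a member, as for Penk in 25Q RGFP109 (95.1%) and Npy in 25Q vehicle (96.05%).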

How the results depend on the processing

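No gene passed edgeR's test in any of the 5 comparisons, and the same held with the RLE factors, filterByExpr alone, the mean over cells of log2(CPM + 1), no replicate block, each batch left out (lowest and highest count 0), thinned cells and without neurons rich in astrocyte markers. DESeq2 called 213, 109, 152, 277 and 70 genes in the order of the report, limma-voom 3 between 97Q and 25Q with RGFP109, and the fit with no filter 1 for RGFP109 in 97Q and 3 between 97Q and 25Q with RGFP109. Causes were not tested.

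Of 35 fold changes (7 members, 5 comparisons), 22 kept their sign under every alternative that gave a value and 13 changed it at least once. No value was obtained for Npy and Cck in thinned cells or for Cck without batch 1. Under vehicle, the log2 fold change between 97Q and 25Q became 0.10 for Npy and -0.80 for Nxph1 with the mean over cells, -2.56 for Nxph1 with limma-voom, -2.50 for Nxph1 with no replicate block, and 0.058 for Npy without its highest neuron. For RGFP109 in 97Q it became -0.25 (mean over cells), -0.76 (limma-voom), -1.65 (no replicate block) and -0.35 (thinned) for Sst, and 0.13, 1.41 and 0.845 for Nxph1 in the first 3 of these. For RGFP109 in 25Q it became -1.15 (mean over cells), -3.17 (limma-voom), -0.69 (no replicate block) and -6.10 (without its highest neuron) for Penk, 0.12 (no replicate block) and 0.31 (without its highest neuron) for Scg2, and -0.083 (no replicate block) for Nxph1. For Penk between 97Q and 25Q with RGFP109 it became -1.01 (limma-voom), -0.85 (no replicate block) and -0.36 (thinned). The interaction became 0.33 (mean over cells) for Scg2, and 1.29 (limma-voom) and 0.93 (no replicate block) for Nxph1. The replicate block changed no call.

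With each batch left out in turn, values ran from -2.81 to 0.66 (Sst), -4.44 to 0.67 (Npy) and -4.22 to 5.83 (Nxph1) under vehicle, from -6.14 to 2.77 (Sst), -4.94 to 0.53 (Npy) and -5.86 to 3.16 (Nxph1) for RGFP109 in 97Q, from -5.10 to 1.38 (Penk) and -0.84 to 0.415 (Scg2) for RGFP109 in 25Q, from -5.71 to 7.64 for Penk between 97Q and 25Q with RGFP109, and from -0.955 to 12.52 (Penk) and -0.595 to 0.304 (Scg2) for the interaction. Of 240 shares of expressing cells under an alternative, 192 stayed within the interval of the main value, and of the 48 that did not, 30 came with 1 count or more and 16 with 100 CPM or more. Pdyn, Tac1 and Vip had a count in too few neurons to be tested.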
